A study of Mus musculus with 8 samples.

Results

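The IL-6 family of cytokines was followed in peritoneal exudate leukocytes through 10 named genes of the 49671 in the deposited tables. They are the ligands Il6, Il11, Lif and Osm, the receptors Il6ra, Il11ra1, Osmr and Il6st, the transcription factor Stat3 and the feedback inhibitor Socs3. The rule lists them by name and uses no measured value, though earlier results of these data were known when they were chosen. All 10 passed the filter on low counts. Male wild-type (WT) C57BL/6 mice, 6 to 8 weeks old, received either a panel of specialized pro-resolving mediators (SPMs) or vehicle by intraperitoneal injection. The panel held the resolvins RvD1, RvD2, RvD5 and RvE2 and the maresin MaR1, at 0.1 ng of each per mouse. It was injected first on day 0, then on days 2, 5, 7 and 9, and a last time on day 12, when every mouse of both groups received 1 mg of zymosan A, a yeast cell wall preparation that starts a self-limited peritonitis. Exudate cells were collected at 12 h from 4 SPM mice and 4 vehicle mice, and the polyA RNA of each mouse gave 1 library of mixed leukocytes. No uninflamed mice are among these libraries, so all values are levels during peritonitis.

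Cytokines of this family signal through gp130, the shared receptor chain encoded by Il6st. IL-6 and IL-11 first bind their own receptors (Il6ra, Il11ra1) and then join a pair of gp130 chains, whereas LIF pairs gp130 with the LIF receptor and OSM pairs it with the LIF receptor or with the OSM receptor (Osmr). The kinases JAK1, JAK2 and TYK2 then phosphorylate STAT3, which enters the nucleus and switches on genes such as Socs3, whose product blocks gp130 and the kinases. Membrane IL-6 receptor is found on few cell types, leukocytes and hepatocytes among them, and a shed form lets IL-6 act on other cells. IL-11 is made chiefly by fibroblasts and other stromal and epithelial cells, and OSM by neutrophils, macrophages and T cells.

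The promoter windows of 5 genes are shown because letters of a STAT or an AP-1 motif were found in them, among windows for 9 of the 10 genes. Osm was not matched. Each window is RefSeq sequence on build GRCm38.p6 and covers the 300 bases around a start site, most of them upstream, read 5′ to 3′ on the gene's strand. Capitals mark the match. The motifs searched on both strands were TTCNNNGAA (STAT), TGANTCA (AP-1, a loose form of the site of FOS and JUN proteins) and TGACGTCA (CRE). No match overlapped that of another motif.
Il11 (chr7:4778092-4778391, minus strand): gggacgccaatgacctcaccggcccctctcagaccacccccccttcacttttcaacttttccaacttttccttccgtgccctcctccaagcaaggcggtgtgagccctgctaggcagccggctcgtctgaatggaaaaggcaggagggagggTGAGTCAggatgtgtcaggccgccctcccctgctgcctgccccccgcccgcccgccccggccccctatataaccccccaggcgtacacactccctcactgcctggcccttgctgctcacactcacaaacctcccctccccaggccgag
Lif (chr11:4257318-4257617, plus strand): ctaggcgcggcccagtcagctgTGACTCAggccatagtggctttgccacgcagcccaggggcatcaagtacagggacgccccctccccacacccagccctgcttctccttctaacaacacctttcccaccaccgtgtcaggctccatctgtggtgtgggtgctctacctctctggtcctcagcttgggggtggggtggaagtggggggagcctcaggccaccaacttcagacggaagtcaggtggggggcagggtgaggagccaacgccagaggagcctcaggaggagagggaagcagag
Il6 (chr5:30012864-30013163, plus strand): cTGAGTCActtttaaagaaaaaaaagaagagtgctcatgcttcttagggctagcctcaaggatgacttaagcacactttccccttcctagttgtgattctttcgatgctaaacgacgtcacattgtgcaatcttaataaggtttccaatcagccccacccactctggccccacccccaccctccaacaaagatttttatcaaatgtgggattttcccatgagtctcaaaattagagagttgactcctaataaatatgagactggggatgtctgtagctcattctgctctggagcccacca
Osmr (chr15:6874264-6874563, minus strand): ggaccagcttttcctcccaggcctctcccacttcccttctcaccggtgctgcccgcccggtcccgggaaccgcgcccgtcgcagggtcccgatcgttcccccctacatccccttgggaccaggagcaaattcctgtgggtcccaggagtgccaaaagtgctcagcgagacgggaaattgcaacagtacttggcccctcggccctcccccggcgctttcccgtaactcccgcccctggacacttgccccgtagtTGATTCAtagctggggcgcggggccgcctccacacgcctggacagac
Socs3 (chr11:117969317-117969616, minus strand): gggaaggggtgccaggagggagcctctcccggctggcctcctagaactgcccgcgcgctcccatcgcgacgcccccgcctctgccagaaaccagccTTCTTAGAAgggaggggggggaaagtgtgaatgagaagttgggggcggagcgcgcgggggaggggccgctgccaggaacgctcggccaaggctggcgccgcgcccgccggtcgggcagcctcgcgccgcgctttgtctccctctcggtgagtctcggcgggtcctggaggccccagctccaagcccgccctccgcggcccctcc

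Il11, Lif, Il6 and Osmr each held 1 AP-1 match, beginning at positions -98, -228, -249 and 3 relative to the start base. The middle base was G in Il11 and Il6, C in Lif and T in Osmr. Socs3 held 1 STAT match, at -154. Among 32851 windows of the same length, 7.81% held the AP-1 letters, 8.30% the STAT letters and 1.79% the CRE letters. The second window of Il11 (chr7:4782808-4783107), the windows of Il6ra, Il6st and Stat3 and the pair of windows for Il11ra1 held none of these letters. A match is a description of these letters, and no binding was measured.

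The libraries held 15154054 to 21114301 reads assigned to genes, so that 1 read was worth 0.0463 to 0.0646 in TMM-normalized CPM (counts scaled to a common library size). SPM mice 3 and 4 stood apart in several genes of this family and had the fewest counted reads. They were the 2 highest of the 8 mice in 4 of the 10 genes, Il11, Lif, Il6 and Osmr, and in 6.72% of the 12880 genes with a mean of at least 1 CPM. Vehicle mouse 3 had the lowest median rank correlation with the other libraries (Spearman's rho 0.983) and the most genes detected, 27592 against 23051 to 26428. Results that rest on these mice are given with and without them.

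Markers of leukocytes dominated the libraries. Summed neutrophil markers (led by S100a9, S100a8 and Mmp9) were at 16613 to 24464 CPM in SPM mice and 12436 to 23307 CPM in vehicle mice. Csf3r (log2 fold change 0.28, unadjusted p = 0.0203) and Cxcr2 (0.37, unadjusted p = 0.0393) were higher in the SPM group by edgeR. Monocyte markers (Chil3, F13a1, Plac8) summed to 2492 to 2886 and 2828 to 3209 CPM, and F13a1 was lower in the SPM group (-0.31, unadjusted p = 0.0151, edgeR). Macrophage markers (Adgre1, Mertk, Cd5l) summed to 327 to 471 and 390 to 494 CPM. B cell markers summed to 519 to 1119 CPM in SPM mice and 523 to 744 CPM in vehicle mice, with overlap. Among them, Pax5 (0.53, unadjusted p = 0.0178) and Ms4a1 (0.42, unadjusted p = 0.0392) were higher in the SPM group by edgeR. Sums were smaller for mast cells (Cma1, Tpsb2, Kit; 53.2 to 91.7 and 63.1 to 82.2 CPM), T and NK cells (Cd8a, Cd3e, Cd3g; 22.9 to 67.0 and 21.9 to 41.4 CPM) and eosinophils (Ccr3, Il5ra, Prg2; 25.8 to 49.8 and 28.4 to 50.9 CPM). In the eosinophil list Epx had 3 counts in all libraries together, and Il5ra was higher in the SPM group (0.41, unadjusted p = 0.00925, edgeR). Over all genes tested, 2.49% were higher and 3.59% lower at an unadjusted p under 0.05. Of these marker genes Il5ra stayed under 0.05 with any 1 mouse left out. The highest unadjusted p from edgeR was 0.0774 for Csf3r (without SPM mouse 3), 0.125 for Cxcr2 and 0.0680 for F13a1 (both without vehicle mouse 1). Without SPM mouse 1 Pax5 was at 0.34 (unadjusted p = 0.0778, edgeR) and Ms4a1 at 0.29 (unadjusted p = 0.134, edgeR). In bulk RNA, fewer cells of a type and less RNA per cell cannot be told apart.

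Il11, the ligand with the widest relative spread within the SPM group, was above every vehicle mouse in every SPM mouse. SPM mice 3 and 4 carried most of the distance. The libraries held 97, 69, 253 and 224 Il11 reads in SPM mice 1 to 4 and 60, 50, 59 and 74 in vehicle mice 1 to 4. In CPM, vehicle mice were at 2.86, 2.34, 3.01 and 3.62 CPM, and SPM mice at 4.49, 3.77, 15.5 and 14.5. On the log2 scale the SPM mice lay 0.60, 0.35, 2.40 and 2.29 above the vehicle mean. SPM mice 1 and 2 were thus close to the highest vehicle mouse, and SPM mice 3 and 4 far above it. The log2 fold change over all mice was 1.68, with a 95% interval of 0.80 to 2.56 (standard error 0.41). Its unadjusted p was 0.00120 and its adjusted p 0.790 from edgeR. Without SPM mice 3 and 4 the log2 fold change was 0.50 (interval -0.01 to 1.00, unadjusted p = 0.0531, edgeR). With any 1 mouse left out it stayed between 1.34 and 1.95.

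Lif, the leukemia inhibitory factor, had the same 2 mice on top but not the separation of the groups. SPM mice were at 21.5, 16.5, 47.2 and 48.4 CPM and vehicle mice at 19.3, 16.8, 19.7 and 20.98 CPM. SPM mouse 2 lay below all vehicle mice, SPM mouse 1 just above them, and SPM mice 3 and 4 above all others. The log2 fold change was 0.79 (interval 0.18 to 1.40, unadjusted p = 0.0148, adjusted p = 0.790, edgeR). Without SPM mice 3 and 4 it was -0.0028 (interval -0.34 to 0.33, unadjusted p = 0.985, edgeR). Without SPM mouse 3 alone it was 0.58 (unadjusted p = 0.0657) and without SPM mouse 4 alone also 0.58 (unadjusted p = 0.0658), both from edgeR.

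Il6, the cytokine that gives the family its name, was a low transcript in both groups. It was at 4.22, 3.66, 10.5 and 8.66 CPM in SPM mice and at 3.53, 3.55, 7.60 and 4.69 CPM in vehicle mice. The groups overlapped, with vehicle mouse 3 next below SPM mice 3 and 4. Its log2 fold change was 0.47 (interval -0.26 to 1.20, unadjusted p = 0.186, edgeR). It was -0.28 without SPM mice 3 and 4 (unadjusted p = 0.398, edgeR) and 0.77 without vehicle mouse 3 (unadjusted p = 0.0382, edgeR).

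Osm, encoding oncostatin M, did not share this pattern. SPM mice were at 57.6, 80.0, 72.3 and 57.4 CPM and vehicle mice at 63.3, 65.0, 100.1 and 79.6 CPM. The highest value was that of vehicle mouse 3, and the groups overlapped. Osm had a log2 fold change of -0.20 (interval -0.54 to 0.13, unadjusted p = 0.208, edgeR). It was -0.05 without vehicle mouse 3 (unadjusted p = 0.704, edgeR) and -0.15 without SPM mice 3 and 4 (unadjusted p = 0.458, edgeR).

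**Figure D1:**
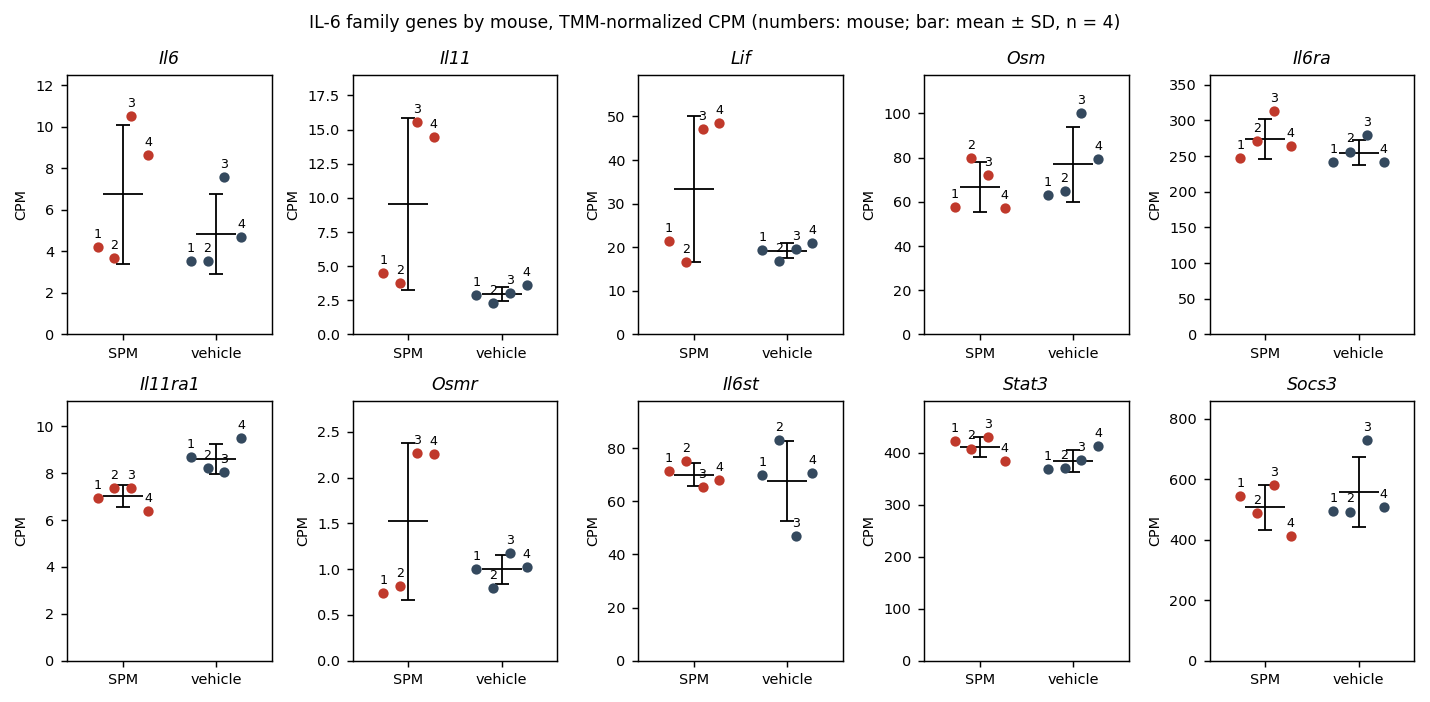
TMM-normalized CPM of the 10 genes (vertical axes, each from 0) in the 4 SPM and 4 vehicle mice (horizontal axis). Points are mice with their numbers and bars give the mean ± SD of 4 mice. SPM mice 3 and 4 are the highest points for Il11, Lif, Il6 and Osmr, while for Osm, Socs3 and Il6st vehicle mouse 3 lies at an extreme.

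Because the ligands differed in level, their balance was computed per gene length, from the deposited TPM, which scale counts by length and library. Osm made up 79.2% to 82.8% of the summed TPM of Il6, Il11, Lif and Osm in vehicle mice. In SPM mice 1 to 4 its share was 74.0%, 83.1%, 58.1% and 53.6%. Osm was thus the most abundant of these ligands in every mouse, by the smallest margin in SPM mice 3 and 4. Il11 took 2.81% to 4.13% in vehicle mice and 6.53%, 4.42%, 14.1% and 15.3% in SPM mice 1 to 4. Lif took 8.51% to 12.6% in vehicle mice and 14.4%, 8.96%, 19.8% and 23.6% in SPM mice. Il6 took 4.13% to 5.88% and 5.07%, 3.56%, 7.91% and 7.56%. The summed TPM itself was 128 ± 22.2 in SPM mice and 115 ± 16.1 in vehicle mice (SD, n = 4). These shares add to 100% within a mouse, so 1 ligand's higher share lowers the others.

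Among the receptors, Il11ra1, the chain that binds IL-11, had all SPM mice below the lowest vehicle mouse. It was at 6.95, 7.38, 7.38 and 6.39 CPM after SPM dosing and at 8.68, 8.23, 8.06 and 9.49 CPM after vehicle. All 4 SPM mice lay together, and leaving out SPM mice 3 and 4 gave a log2 fold change of -0.26, near the -0.29 of all mice, though its unadjusted p was then 0.128 (edgeR). The interval over all mice was -0.57 to -0.02 (unadjusted p = 0.0374, adjusted p = 0.790, edgeR). The two-sided exact permutation test of the CPM gave p = 0.0286, the smallest that 4 mice against 4 allow, but on TPM the groups overlapped (exact permutation test, p = 0.114). The unadjusted p was above 0.05 in 11 of 18 alternative settings, DESeq2 among them (unadjusted p = 0.0534), with a log2 fold change of -0.32 to -0.20 in all 18. Of the 50-base words in Il11ra1 transcripts, 46.3% also occur in Gm13305 or Il11ra2, near-identical copies, so reads of these genes are hard to tell apart. Gm13305 had 1 to 3 counts per mouse, and the 3 Il11ra2 entries had 0 counts in all mice. The paper counted unique reads alone, so these low counts do not show that the copies are silent. Il11ra1 itself may be undercounted for the same reason.

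Osmr, the OSM-specific receptor chain, was at the low end of detection. SPM mice were at 0.741, 0.820, 2.27 and 2.26 CPM and vehicle mice at 1.00, 0.795, 1.17 and 1.03 CPM, which are 15 to 37 reads per mouse. SPM mice 3 and 4 were again above all others, and SPM mice 1 and 2 were at the low end of the vehicle range or below it. The log2 fold change was 0.58 (interval -0.24 to 1.41, unadjusted p = 0.152, edgeR), and -0.34 without SPM mice 3 and 4 (unadjusted p = 0.320, edgeR). Without SPM mouse 1 it was 0.84 (unadjusted p = 0.0362, edgeR).

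Il6ra, the IL-6 binding chain, was at 248, 271, 313 and 265 CPM in SPM mice and 242, 256, 279 and 241 CPM in vehicle mice. These ranges overlapped, and the log2 fold change was 0.11 (interval -0.11 to 0.32, unadjusted p = 0.300, edgeR). Il6ra shares 2.80% of its exon bases with the antisense gene Gm42809, which had 4 to 19 counts per mouse.

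Il6st, the shared gp130 chain, was at 71.5, 75.3, 65.5 and 68.0 CPM in SPM mice and 69.7, 83.3, 47.0 and 70.7 CPM in vehicle mice. Vehicle mouse 3 was the lowest of all. For Il6st it came to a log2 fold change of 0.05 (interval -0.26 to 0.36, unadjusted p = 0.729, edgeR), and -0.09 without that mouse.

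Downstream of the receptors, neither Stat3 nor Socs3 separated the groups. Stat3 was at 422, 408, 430 and 384 CPM in SPM mice and 368, 370, 386 and 413 CPM in vehicle mice, with a log2 fold change of 0.10 (interval -0.09 to 0.29, unadjusted p = 0.292, edgeR). The 72 exon bases that Stat3 shares with Stat5a, on the opposite strand, are 0.756% of its exons. Socs3, a direct STAT3 target whose window holds the STAT letters shown above, was at 547, 490, 581 and 412 CPM in SPM mice and 496, 494, 732 and 510 CPM in vehicle mice. Vehicle mouse 3 was far above the rest. The log2 fold change of Socs3 was -0.14 (interval -0.45 to 0.18, unadjusted p = 0.368, edgeR), and 0.02 without vehicle mouse 3. SPM mice 3 and 4, the highest in Il11 and Lif, were the highest and the lowest of the SPM mice in Socs3.

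**Figure D2:**
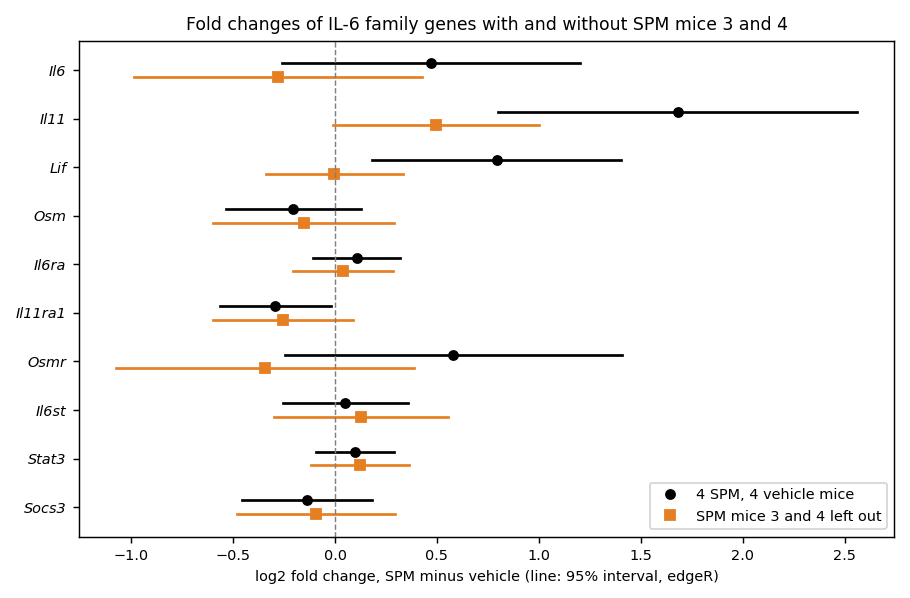
Log2 fold change of each gene, SPM minus vehicle (horizontal axis), with its 95% interval from edgeR. Circles use all 8 mice and squares leave out SPM mice 3 and 4: Il11 goes from 1.68 to 0.50 and Lif from 0.79 to -0.0028, while Il11ra1 stays at -0.29 and -0.26.

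Counted over the family, 0 of the 10 genes passed an adjusted p of 0.05, as did 0% of the 21423 genes tested by edgeR (0 also with DESeq2 and with limma), and 1303 genes were at an unadjusted p under 0.05. At an unadjusted p under 0.05 edgeR gave 2 of the 10 higher in the SPM group, Il11 and Lif, beside 2.49% of all genes, and 1 lower, Il11ra1, beside 3.59%. With a log2 fold change over 1 as well, only Il11 was left of the 10, beside 0.826% of all genes. The CPM of the groups did not overlap for Il11 in the higher direction, beside 1.46% of all genes, and for Il11ra1 in the lower direction, beside 2.37%. Without SPM mice 3 and 4, 0 of the 10 genes had an unadjusted p under 0.05 in either direction, beside 4.78% of the 20471 genes then tested. The median log2 fold change of the 10 genes was 0.10 and that of all genes -0.02. Of the 10, 7 had a positive value, beside 47.2% of all genes.

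The genes differed in how widely they varied between mice. Within the SPM group the coefficient of variation was 65.8% for Il11, 56.4% for Osmr, 50.2% for Lif and 49.6% for Il6, against a median of 12.2% over genes with a mean of at least 1 CPM. The other 6 genes were between 4.90% and 16.8%. Within the vehicle group Il11 was at 17.8%, Osmr at 15.6% and Lif at 9.03%, against a median of 12.96%, and Il6 at 39.6%. Relative to the vehicle mean, SPM mouse 3 was higher by 2.40 for Il11, 1.30 for Lif, 1.19 for Osmr and 1.12 for Il6 on the log2 scale. For SPM mouse 4 these distances were 2.29, 1.33, 1.18 and 0.84. Outside these 4 genes the distances in both mice lay between -0.44 and 0.30.

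**Figure D3:**
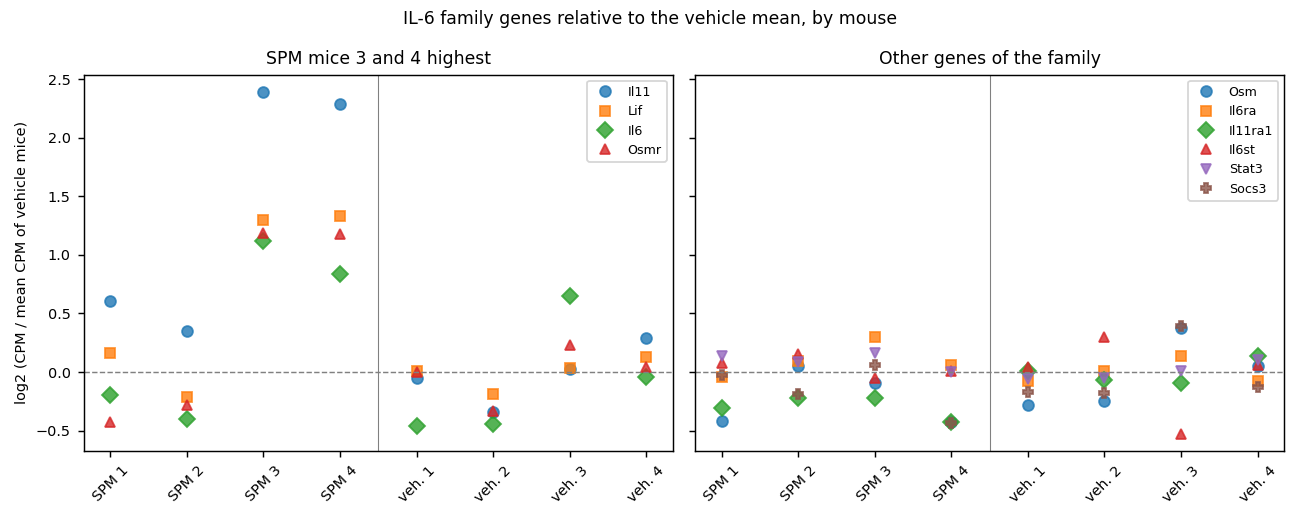
Each gene's CPM relative to the mean of the vehicle mice, on a log2 scale (vertical axis), by mouse (horizontal axis). Il11, Lif, Il6 and Osmr (left) lie apart from the rest in SPM mice 3 and 4, by 0.84 to 2.40, and the other 6 genes (right) lie between -0.44 and 0.30 in those mice.

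Per gene length, Socs3 and Stat3 had the highest mean levels and Osmr the lowest. Socs3 was the most abundant at a mean of 519 TPM (range over 8 mice 418 to 639), and its range did not reach that of Stat3 at 118 TPM (102 to 131). Osm (89.0, range 74.1 to 111) and Il6ra (86.6, range 79.0 to 101) followed, and neither differed from its neighbour above beyond the spread. Il6st at 17.7 TPM (10.7 to 22.1) was separate from Il6ra, and from there Lif at 17.2 (10.8 to 32.6), Il11 at 8.86 (3.42 to 21.5), Il6 at 6.72 (4.16 to 12.1) and Il11ra1 at 4.95 (4.19 to 6.00) overlapped neighbour by neighbour. Osmr was the lowest at 0.295 TPM (0.181 to 0.547), below every other gene in every mouse. The level of Il11ra1 may be too low, since part of its sequence is shared with copies. In SPM mice 3 and 4 Il11 stood above Il6st, at 21.5 and 21.1 against 16.4 and 17.96 TPM, and in the other 6 mice it was below it.

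**Figure D4:**
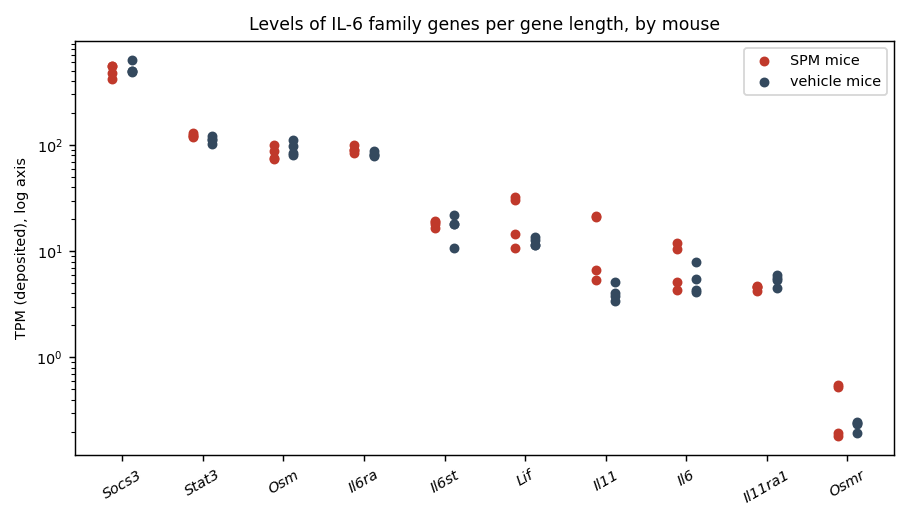
Deposited TPM of each gene (vertical axis, log scale) in every mouse, with genes ordered by mean along the horizontal axis. Socs3 lies highest at 418 to 639 TPM and Osmr lowest at 0.181 to 0.547, and the Il11 points of SPM mice 3 and 4 lie above the other 6.

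To see which genes resembled Il11, centred log2 CPM profiles over the 8 mice were compared by their mean absolute difference with 12879 genes of at least 1 CPM. The 10 nearest were Gm2115 (difference 0.17), Grem1, Cx3cl1, Cemip, Antxr1, Cyr61, Igfbp5, Cth, Serpinf1 and Gdnf (0.25). Grem1, a secreted BMP antagonist, was at 9.50, 8.26, 33.5 and 34.2 CPM in SPM mice and 6.07 to 8.63 CPM in vehicle mice. Igfbp5, an insulin-like growth factor binding protein, was at 5.88, 6.12, 26.5 and 27.6 CPM against 5.05 to 6.91 CPM. Cemip, which takes part in hyaluronan breakdown, was at 4.63, 3.72, 15.6 and 14.6 CPM against 2.55 to 5.62 CPM. Each was high in SPM mice 3 and 4, and in SPM mice 1 and 2 within or just beside the vehicle values. Lif ranked 46th, Il6 97th and Osmr 98th by closeness to Il11, and Il11ra1 10780th. The nearest genes of Lif were Ltbp2, Gm13394 and Hmga2, with Osmr 16th. Those of Il6 were Gm11714, Krt83 and Hbegf, with Osmr 14th and Lif 17th. Osm lay nearest to C5ar1, Rom1 and Ehd1, and Il11 was 12854th of its 12879 genes.

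Markers of non-leukocyte cells were low, and the summed lists did not follow Il11, although Pdgfrb and Efemp1 had SPM mice 3 and 4 as their 2 highest. The 10 fibroblast markers (led by Col1a1, Thy1 and Col3a1) summed to 91.9, 95.1, 96.3 and 77.4 CPM in SPM mice 1 to 4 and to 63.4, 107.6, 85.2 and 126.8 CPM in vehicle mice. Of these markers Thy1 was at 39.3 CPM in SPM mouse 1, where the T and NK cell sum was also highest, at 67.0 CPM. The fibroblast sums of SPM mice 3 and 4 were inside the vehicle range. In this list 1 of 10 genes was higher at an unadjusted p under 0.05, beside 2.49% of all genes: Pdgfrb, a receptor of mesenchymal cells, was at 1.71, 2.24, 5.78 and 5.30 CPM in SPM mice and 1.68 to 2.10 CPM in vehicle mice (log2 fold change 1.03, unadjusted p = 0.0116, edgeR). Its value was 0.13 without SPM mice 3 and 4 and 0.74 without SPM mouse 3 alone (unadjusted p = 0.0553, edgeR). The 10 mesothelial markers (Krt8, Upk3b and Krt19 the highest) summed to 8.94 to 12.5 CPM in SPM mice and 9.39 to 16.0 CPM in vehicle mice, with 1 of 10 genes, Krt19, lower in the SPM group (-0.80, unadjusted p = 0.0192, edgeR), beside 3.59% of all genes. Without vehicle mouse 2 Krt19 had an unadjusted p of 0.0680 (edgeR). Efemp1, an extracellular matrix protein of the same list named after its values were seen, was at 1.07, 1.148, 2.89 and 2.13 CPM in SPM mice and 0.286 to 1.59 CPM in vehicle mice. Its log2 fold change was 0.74 (unadjusted p = 0.117, edgeR), and 0.06 without SPM mice 3 and 4. The 6 endothelial markers (Vwf, Kdr, Cdh5) summed to 30.7 to 37.1 and 20.6 to 46.6 CPM. None of the markers in these 3 lists was at 0 in the libraries together. The sums are led by a few genes each, and the part of non-leukocyte cells in the Il11 values was not tested.

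**Figure D5:**
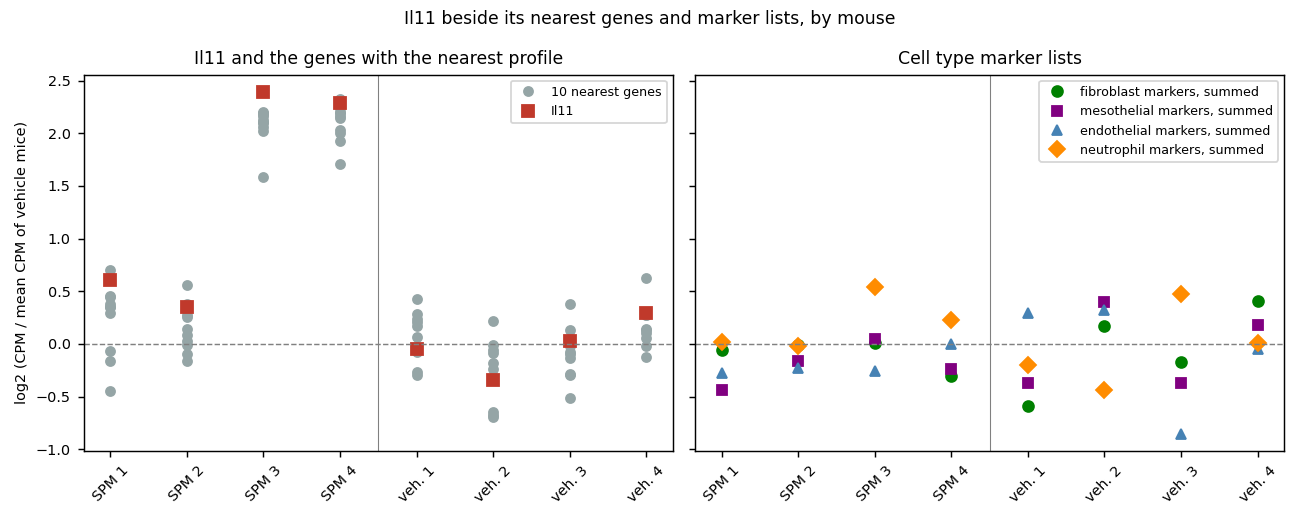
Log2 of CPM relative to the vehicle mean (vertical axis) by mouse (horizontal axis), for Il11 with its 10 nearest genes (left) and for summed marker lists (right). Il11 lies 2.40 and 2.29 above the vehicle mean in SPM mice 3 and 4, where the fibroblast sums of 96.3 and 77.4 CPM lie inside the vehicle range of 63.4 to 126.8 CPM.

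Of the other ligands of the family, the 6 described here with enough counts for the test gave 0 higher and 0 lower at an unadjusted p under 0.05 from edgeR, beside 2.49% and 3.59% of all genes. Ebi3, a subunit of IL-27 and IL-35, was the most abundant at a mean of 179 TPM, followed by its IL-27 partner Il27 at 22.9 TPM and the cardiotrophin-like cytokine Clcf1 at 22.5 TPM. Ebi3 was at 60.7 to 98.3 CPM in SPM mice and 52.4 to 106 CPM in vehicle mice (log2 fold change 0.04). Il27 was at 5.68 to 10.4 and 5.66 to 9.64 CPM (0.16), and Clcf1 at 23.6 to 39.0 and 26.98 to 33.3 CPM (-0.05). Ctf1 (1.91, unadjusted p = 0.0577), Ctf2 (-0.43, unadjusted p = 0.454) and Cntf (-0.20, unadjusted p = 0.593, all edgeR) were below 1 CPM in every mouse. Il31 had 0 counts in all 8 libraries, which allows up to 3 counts in their total.

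Of the other receptors, 4 were tested and again 0 were higher and 0 lower, beside 2.49% and 3.59% of all genes. Il27ra was at 13.01 to 23.4 CPM in SPM mice and 10.9 to 16.3 CPM in vehicle mice (log2 fold change 0.31, unadjusted p = 0.121). Without SPM mouse 1 its log2 fold change was 0.09 (unadjusted p = 0.543). Lifr, which LIF needs and OSM can use, was at 22.8 to 42.4 and 22.3 to 37.4 CPM (0.22, unadjusted p = 0.270), and at 0.07 without SPM mouse 2 (unadjusted p = 0.727). Il31ra (-0.14, unadjusted p = 0.741) and Cntfr (-0.56, unadjusted p = 0.550) were below 1 CPM in every mouse. These p-values are from edgeR. By TPM the order was Il27ra at 12.2, Lifr at 8.29 and Il31ra at 0.322.

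The 11 signal partners, which are kinases, phosphatases, sheddases and other regulators of the pathway, gave 0 higher and 0 lower at an unadjusted p under 0.05, beside the same 2.49% and 3.59% of all genes. Jak1, at 226 TPM the most abundant, was at 599, 610, 606 and 612 CPM in SPM mice and 552, 567, 478 and 580 CPM in vehicle mice, without overlap (log2 fold change 0.16, unadjusted p = 0.118, edgeR). Jak2 was also without overlap, at 207 to 231 against 193 to 205 CPM (0.13, unadjusted p = 0.136, edgeR), and both were named after their values were seen. Over all genes, 1.46% did not overlap in this direction. The next most abundant were the sheddases of the IL-6 receptor, Adam17 at 133 TPM (log2 fold change 0.01) and Adam10 at 131 TPM (-0.02).

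Among 14 genes known to be induced through gp130 and STAT3, 0 were higher and 3 were lower in the SPM group at an unadjusted p under 0.05 from edgeR, beside 2.49% and 3.59% of all genes. The 3 were Saa3, Cebpb and Fos, and the median log2 fold change of the 14 was -0.08, beside -0.02 for all genes. Saa3, an acute-phase protein and the most abundant of them at 2729 TPM, was at 1918, 1715, 2067 and 2018 CPM in SPM mice and 3376, 2265, 4619 and 2360 CPM in vehicle mice. All SPM mice were below all vehicle mice, and vehicle mouse 3 was the highest (log2 fold change -0.71, interval -1.14 to -0.28, unadjusted p = 0.00325, adjusted p = 0.790, edgeR). It stayed at -0.46 without vehicle mouse 3 (unadjusted p = 0.00615, edgeR). Cebpb, a transcription factor of the acute-phase response, was at 349, 415, 400 and 369 CPM against 470, 528, 862 and 514 CPM. Its groups did not overlap either, and over all genes 2.37% did not overlap in this direction. The log2 fold change of Cebpb was -0.63 (interval -0.99 to -0.27, unadjusted p = 0.00236, adjusted p = 0.790, edgeR). It was -0.39 without vehicle mouse 3 (unadjusted p = 0.000963) and -0.62 without SPM mice 3 and 4 (unadjusted p = 0.0229, both edgeR). Fos was at 60.9 to 103 and 79.7 to 170 CPM (-0.48, unadjusted p = 0.0429, edgeR), and without vehicle mouse 2 at -0.22 (unadjusted p = 0.234, edgeR). Haptoglobin (Hp, 1961 TPM, log2 fold change -0.09) and the survival factor Mcl1 (1539 TPM, -0.08) were the next most abundant. Saa3, Cebpb and Fos each respond to other signals besides gp130.

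The positions of the 10 protein-coding genes on GRCm38, as in the deposited tables, were chr5:30013114-30019981 for Il6, chr7:4772373-4782857 for Il11, chr11:4257557-4272514 for Lif and chr11:4236420-4241026 for Osm, which is the neighbour of Lif. The receptors lay at chr3:89864059-89913196 (Il6ra), chr4:41699989-41769474 (Il11ra1), chr15:6813577-6874969 (Osmr) and chr13:112464070-112510086 (Il6st). Stat3 lay at chr11:100885098-100939540 and Socs3 at chr11:117966079-117970047. The windows of Il11, Osmr and Socs3 printed above lie inside their genes' listed spans, since each belongs to a start site downstream of the outermost listed end. Lif and Osm, next to each other on chromosome 11, differed in pattern, with SPM mice 3 and 4 at 47.2 and 48.4 CPM for Lif and at 72.3 and 57.4 CPM for Osm, inside the vehicle range or below it.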

How the data were processed

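Polyadenylated RNA of exudate leukocytes was sequenced for 8 mice, 1 library each. The authors trimmed the reads (Trimmomatic 0.36), aligned them (STAR 2.5.2b) to GRCm38 with spike-in sequences and counted them per gene (featureCounts, Subread 1.5.2). The submitters' notes also name GRCm39, but the deposited coordinates are those of GRCm38. The deposited counts are raw, and the deposited TPM could be rebuilt from the counts and gene lengths to within 5.0e-05. The strand setting is not given in the sources used here. The authors' notes also name DESeq2.

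The 92 spike-in rows (0.517% to 1.27% of counts) were set aside, and each gene whose counts summed to 10 or more entered edgeR 4.0.16 (R 4.3.3), quasi-likelihood F test, TMM scaling, no covariates, with Benjamini-Hochberg adjustment over 21423 genes. Standard errors came from the fold change and the F statistic. Permutation tests were two-sided over all 70 arrangements. Alternatives were DESeq2 1.42.0, limma 3.58.1 on log2(TPM + 1) and log2(TPM + 0.1), a mean TPM of at least 1, other scalings and filters, a replicate block, leaving out each mouse, and SPM mice 3 and 4 left out. Profiles used log2 CPM with a prior count of 2. In simulated data, genes with a mean of at least 1 CPM were changed equally in all 4 SPM mice. There edgeR, on 20807 genes, recovered 83 of 100 genes changed by a log2 of 1 and 98 of 100 changed by 2. It gave 11 false calls. The simulation does not cover differences carried by only some mice, such as that of Il11. The libraries of no pair of mice were duplicates (chi-square per gene 7.58 to 56.0 over 28 pairs). Each library is a separate mouse.

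The 10 genes and all lists were chosen with earlier results of these data known. All 10 genes are described. Of the other lists every ligand and receptor, every gene at an unadjusted p under 0.05 and the 3 with the highest TPM (CPM for markers) are named, with the 10 genes nearest to Il11 and the 3 nearest to Il6, Lif and Osm. Some items of these lists are not reported here. Siglecf was not matched in the tables under that symbol. Promoter sequences are from RefSeq (GRCm38.p6), and overlaps and shared words were taken from GENCODE M21.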

Additional observations from a re-analysis of the deposited data

Results flagged for a closer look

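Socs3 in vehicle mouse 3 was at 732 CPM, far from the other vehicle mice at 494 to 510 CPM, and the gap was 0.934 of the group's range. In 20 groups of 4 mice tested this way, 1 was marked, and chance marks about 1 group in 20. Without this mouse the log2 fold change of Socs3 was 0.02 instead of -0.14.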

How the results depend on the processing

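The log2 fold changes of the 10 genes were computed under 18 alternatives, and in 153 of 179 cases direction and side of an unadjusted p of 0.05 were kept, with 17 weaker, 4 stronger and 5 of the opposite sign. Osmr was too low for the fit on a mean TPM of 1 or more. With SPM mice 3 and 4 left out, Il6 was at -0.28, Lif at -0.0028 and Osmr at -0.34, and 0 of the 10 genes had an unadjusted p under 0.05, against 3 with all mice. With 1 mouse left out at a time the 10 genes gave 1 to 4 such genes, and all genes 816 to 1584 against 1303. Il6st then ranged from -0.087 to 0.18 and Socs3 from -0.21 to 0.024, each of the opposite sign only without vehicle mouse 3. With every gene of at least 1 count, edgeR gave 160 genes at an adjusted p under 0.05, Il11 (5.93e-15) and Lif (4.71e-07) among them, and 2347 at an unadjusted p. In that fit the prior degrees of freedom were infinite, against 6.95 with at least 10 counts, so each gene was tested without a spread of its own. No other alternative gave an adjusted p under 0.05. Limma restricted to a mean TPM of 1 or more gave 736 genes and 1 of the 10, and limma on log2(TPM + 0.1) gave 1 of the 10. On TPM instead of CPM, 1 of the 10 genes, not 2, had an exact permutation p under 0.05.

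Correlations of same-numbered mice were -0.07, 0.13, 0.19 and -0.01, and those of mice with different numbers lay between -0.18 and 0.14. These values overlap and do not decide whether the replicate numbers pair the mice. With the replicate block, Il11, Lif and Il6 (0.43, unadjusted p = 0.0326, edgeR) were at an unadjusted p under 0.05 and Il11ra1 was not (-0.29, unadjusted p = 0.0692, edgeR), and 1333 genes were. Depth limits what can be said of Osmr, at 15 to 37 reads per mouse, and of the ligands and receptors below 1 CPM.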
